A study of Mus musculus with 3 samples.

Results

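The genes described here are 40 genes of the motile cilium: axoneme components, dynein arm subunits and factors that build cilia. They were taken by name from a deposited table of 53342 genes, through the symbols that GENCODE release M21 gives to the table's Ensembl identifiers. Earlier results of these data were known at that choice, among them that ciliated cell genes are lower in 1 mouse, called mouse 4 below. The counts of members below are therefore no independent support for that pattern. All 40 were found, and all 40 were among the 17636 genes that passed a filter on low counts. The counts came from bulk RNA sequencing of the lungs of 3 male C57Bl/6 mice, called mouse 4, 5 and 6 after the last digit of their labels. Each mouse had received microparticles made from Mycobacterium abscessus into the trachea, in a volume of 50 µL and in an amount that matched 1000000 bacteria, as a challenge meant to give rise to granulomas. MIA-602, which blocks the receptor for growth hormone-releasing hormone, was also injected under the skin of each, at 5 µg every day for 3 weeks. All 3 mice belong to 1 group and carry both agents, and lungs without the particles or without MIA-602 were not analysed here. Every difference below is therefore a difference between mice treated alike, and none is an effect of the particles or of MIA-602.

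Motile cilia stand in tufts on the multiciliated cells of the airway surface, where their beat carries mucus and trapped microbes out of the lung. Each cilium is built on an axoneme, a ring of microtubule doublets around a central pair. Outer and inner dynein arms slide the doublets against each other, radial spokes and the nexin-dynein regulatory complex control that sliding, and tektins and other inner proteins line the doublets. Mcidas starts the multiciliated fate, and Foxj1 and the Rfx factors then switch on the genes of the axoneme. In people, loss of many of these genes causes primary ciliary dyskinesia.

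Rfx factors bind a DNA element called the X-box and Foxj1 binds forkhead elements, so the promoters of the 40 genes were searched for both. RefSeq windows of 300 bases on build GRCm38.p6, from 250 bases before to 50 after the annotated start, were used for 35 of the 40 genes, and Foxj1, Dnah3, Rsph1, Rsph4a and Tppp3 had none here. These 35 genes had 40 windows, and a gene was counted if any of its windows held a match. The last bases of 35 of the 40 windows were found in a transcript of the same gene. The heptamer GTTGCCA is a half-site, 1 arm of an X-box and not a whole one, and is called the X-box heptamer here. Read on either strand, it lay in a window of 9 of these 35 genes (25.7%) and of 1358 of the 27025 genes with a window (5.02%). A forkhead heptamer, TGTTTAC on either strand, lay in a window of 3 of 35 genes (8.57%), Cfap43, Ak7 and Sntn, and of 4.05% of all. The palindrome GTTNCC, 0 to 3 bases and GGNAAC has both arms of an X-box, and its left arm overlaps the X-box heptamer. This exact form with both arms lay in a window of 0 of 35 genes and of 0.936% of all. Arms with a mismatch were not searched. Next to the matches 20 bases before the start of Cfap44 and 14 bases before that of Hydin lies an arm with 1 mismatch. A match is a description of letters and not a bound site, and a window without a match says nothing of the factor.

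Shown are the 6 genes of highest mean CPM (counts per 1000000 counts of a library) among the 9 with the X-box heptamer. These were Dnah10, Cfap44, Tekt1, Drc1, Mns1 and Sntn. Sequences run 5′ to 3′ along the gene's own strand. Capitals mark the X-box heptamer, as GTTGCCA or as its reverse complement TGGCAAC, and in Sntn also the forkhead heptamer. Coordinates here and below are on this build, mm10 in the submitters' processing notes. The first 4 are 29-base stretches around the match, which begins 10 bases after the start of Dnah10, and 15, 12 and 73 bases before the starts of Tekt1, Drc1 and Mns1.
Dnah10 (chr5:124725084-124725112, plus strand): ctagggtcgccGTTGCCAcggacgcccgc
Tekt1 (chr11:72361880-72361908, minus strand): gcgtccgtccgGTTGCCAtagagaccgca
Drc1 (chr5:30281370-30281398, plus strand): ctgctttccctTGGCAACggcttgttcct
Mns1 (chr9:72438445-72438473, plus strand): gcgctcctgccTGGCAACgaagactctcc
For Cfap44, with X-box heptamers 130 and 20 bases before its start, and for Sntn, with 1 X-box heptamer 66 bases and a forkhead heptamer 236 bases before its start, all 250 bases before the start are given.
Cfap44 (chr16:44394549-44394798, plus strand): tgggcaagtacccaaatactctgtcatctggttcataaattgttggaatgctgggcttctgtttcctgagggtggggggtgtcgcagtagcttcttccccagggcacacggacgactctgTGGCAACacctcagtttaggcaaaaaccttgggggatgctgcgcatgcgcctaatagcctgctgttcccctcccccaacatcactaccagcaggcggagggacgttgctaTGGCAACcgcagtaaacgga
Sntn (chr14:13670626-13670875, plus strand): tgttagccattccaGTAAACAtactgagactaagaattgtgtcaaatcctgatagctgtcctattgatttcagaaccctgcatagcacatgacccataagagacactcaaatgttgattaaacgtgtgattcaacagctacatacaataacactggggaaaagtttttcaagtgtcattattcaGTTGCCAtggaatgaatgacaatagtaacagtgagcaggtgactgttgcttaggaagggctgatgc

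Library totals of mice 4, 5 and 6 were 43845715, 35674761 and 31579465, so that 1 count stood for 0.0232, 0.0277 and 0.0315 CPM. Of the defining genes of lung tissue, Sftpc, a surfactant protein of alveolar type 2 cells, stood at 14532, 20176 and 18404 CPM. Mouse 4 stood apart from the others in RNA of muscle and squamous epithelium: 8 skeletal muscle genes summed to 5129, 1900.3 and 1629 CPM, and 7 squamous genes to 282, 106 and 93.5 CPM. Levels are CPM scaled by TMM, a method that corrects library sizes for the composition of the RNA, and mean ± SD is over the 3 mice.

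Motile cilia genes were lowest in mouse 4, almost without exception. Mouse 4 had the lowest level of the 3 mice in 39 of the 40 genes, against 33.3% of all genes tested, while 0 of 40 were lowest in mouse 5, against 36.8%. The exception was Mcidas, lowest in mouse 6 as were 29.9% of all genes. Mouse 4 was lower than mouse 5 in 39 genes and lower than mouse 6 in 39, against 49.5% and 50.3% of all genes, and mouse 5 was lower than mouse 6 in 6, against 49.9%. The median level of the 40 genes was 12.6, 19.4 and 18.2 CPM in mice 4, 5 and 6, a mean of 16.7 ± 3.62 CPM (n = 3), while the median over all genes tested was 19.0, 19.2 and 19.1 CPM. On the log2(CPM + 0.5) scale the median difference was -0.70 for mouse 4 against mouse 5 and -0.54 for mouse 4 against mouse 6, beside 0.003 and -0.002 over all genes. Mice 5 and 6 lay closer together, with a median of 0.18 for mouse 5 over mouse 6. In a bulk sample, fewer ciliated cells and less RNA of these genes per ciliated cell cannot be told apart.

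Most members followed 1 order of the mice, with mouse 4 lowest, mouse 6 in the middle and mouse 5 highest. This order held in 33 of 40 genes, against 20.2% of all genes. In 6 others, Rfx2, Dnah10, Rsph1, Rsph9, Cfap126 and Dynlrb2, mouse 6 was the highest, an order seen in 13.1% of all genes. Mouse 4 was lower than mouse 5 by at least 1.5-fold in 26 of 40 genes, against 7.61% of all genes, and lower than mouse 6 by that much in 17 of 40, against 5.48%. Mouse 5 was lower than mouse 6 by 1.5-fold in 0 of 40 genes, against 5.5% of all, and higher in 1, Mcidas, against 4.46%. The 40 genes of a library come from the same RNA, so these counts describe 3 animals and are not 40 independent observations.

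**Figure D1:**
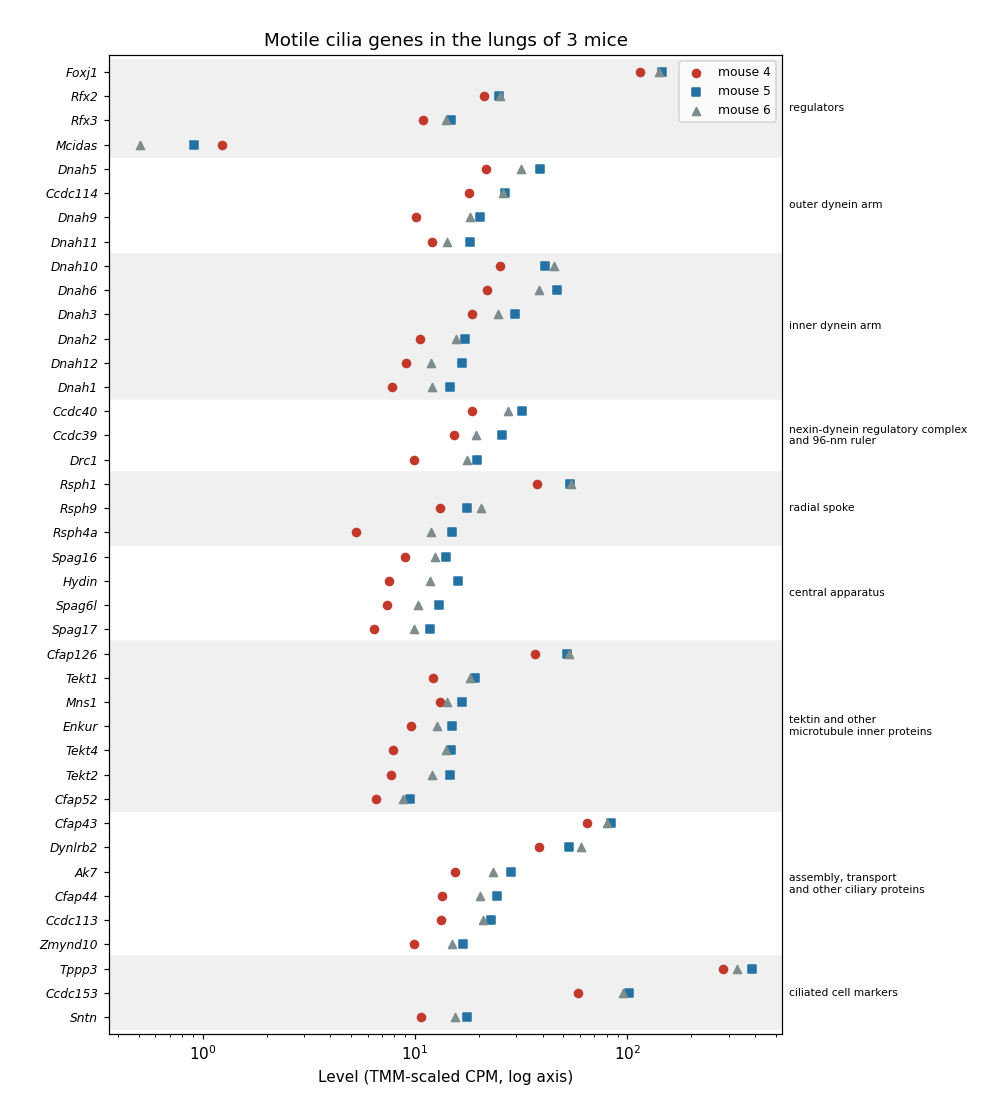
Level of each of the 40 motile cilia genes in TMM-scaled CPM on a log axis, 1 symbol per mouse, grouped by role. The circles of mouse 4 lie to the left of both other symbols in 39 rows, and Mcidas is the row in which they lie to the right.

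Whether this spread between mice was larger than that of other genes was tested with edgeR's quasi-likelihood fit, which sets each gene's spread against the trend over all genes tested. With Benjamini-Hochberg adjustment 0 of 40 members passed, as did 0 of 17636 genes (0%). At an unadjusted p under 0.05, 13 of 40 members passed against 4.92% of all genes. Without the filter on low counts 8 of 40 members passed after adjustment, against 2.06% of the genes then tested. Residual variances from limma gave 0 members adjusted and 13 unadjusted, the latter against 4.98% of all genes, and DESeq2 dispersions gave 0 and 1, the latter against 1.18%. The smallest p among the members was that of Dnah6, at 0.0102 (edgeR quasi-likelihood fit, Benjamini-Hochberg adjusted p = 0.955). Differences beyond counting error were tested apart from this: a chi-square test of the counts over the libraries passed for 40 of 40 members after adjustment, against 63% of all genes. That test compares 3 libraries and not conditions. Between mice 5 and 6 alone it passed for 22 of 40 members, against 42.7% of all genes. Without mouse 5 it passed for 39 members against 38.9% of all genes, and without mouse 6 for 39 against 50.2%.

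Intervals for the ratio of 2 libraries were taken from the counts alone, so they cover counting error and not the spread between animals. The 95% interval for mouse 4 over mouse 5 lay below 0 on the log2 scale in 39 of 40 genes, against 27% of all genes, and spanned 0 for Mcidas. For mouse 4 over mouse 6 it lay below 0 in 38 genes, against 21.6% of all, spanned 0 for Mns1 and lay above 0 for Mcidas, as it did for 23.5% of all genes. For mouse 5 over mouse 6 it lay above 0 in 21 of 40 genes, against 24.8% of all, and below 0 in 3, against 23.6%. Members also differed among themselves: the interval for mouse 4 over mouse 5 lay wholly below the members' own median in 9 genes and wholly above it in 12. Over all genes, whose median log2 ratio was 0.003, it lay below 0 in 27% and above 0 in 27.9%. Such scatter is therefore not particular to the members.

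**Figure D2:**
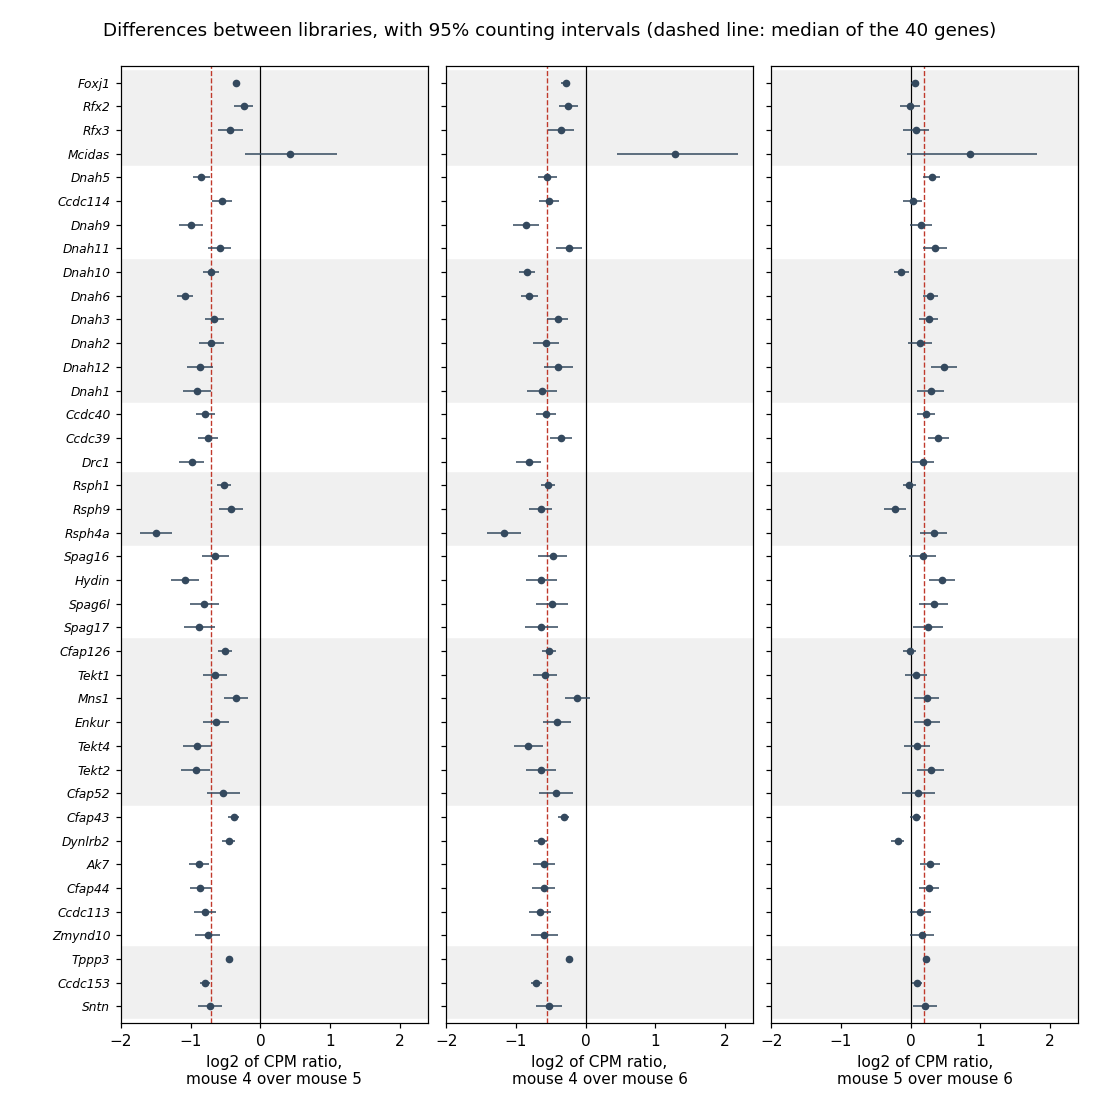
log2 ratio of CPM between each pair of libraries, without a pseudocount, for the 40 genes in the same order as in the plot of levels; bars are exact 95% counting intervals, the solid line is 0 and the dashed line is the median of the 40 genes. Points in the first 2 panels lie left of 0 for all genes but Mcidas, and in the third panel they gather near 0.

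Of the 4 regulators, Foxj1, Rfx2 and Rfx3 varied little between the mice, with coefficients of variation of 12.3%, 9.4% and 15.2% beside a median of 25.7% over the 40 genes. The median log2 difference of the 4 was -0.29 against mouse 5 and -0.26 against mouse 6. Foxj1, the forkhead factor that drives motile cilia (ENSMUSG00000034227, chromosome 11, 116330704 to 116335399), was at 115, 146 and 140.4 CPM in the lungs of mice 4, 5 and 6, a log2 ratio of -0.34 (95% interval -0.40 to -0.29) for mouse 4 over mouse 5. Mouse 4 was the lowest and mice 5 and 6 were close together. Rfx2 (ENSMUSG00000024206, chromosome 17, 56775897 to 56831013), an X-box factor of ciliated cells, stood at 21.1, 24.9 and 25.1 CPM. Rfx3 (ENSMUSG00000040929, chromosome 19, 27761721 to 28011166), a second X-box factor that also serves primary cilia, stood at 10.96, 14.8 and 14 CPM. Both had mouse 4 lowest, with log2 ratios of -0.24 (95% interval -0.37 to -0.10) and -0.43 (95% interval -0.61 to -0.25) for mouse 4 over mouse 5. None of these 3 reached a 1.5-fold difference in any pair of mice.

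Mcidas, the regulator that sets multiciliation going (ENSMUSG00000074651, chromosome 13, 112993845 to 113000394), was the lowest of the 40 genes and had the reverse order. It had 53, 33 and 16 counts in mice 4, 5 and 6, or 1.23, 0.913 and 0.505 CPM. Mouse 4 was the highest and mouse 6 the lowest, with a log2 ratio of 1.29 (95% interval 0.46 to 2.19) for mouse 4 over mouse 6 and 0.43 (95% interval -0.22 to 1.10) for mouse 4 over mouse 5. The first of these intervals leaves out 0 and the second does not. Its spread between mice had an unadjusted p of 0.159 (edgeR quasi-likelihood fit).

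Outer dynein arm genes were lower in mouse 4 in 4 of 4 cases, with a median log2 difference of -0.70 against mouse 5 and -0.52 against mouse 6. Dnah5, an outer arm heavy chain whose loss is a common cause of primary ciliary dyskinesia (ENSMUSG00000022262, chromosome 15, 28203752 to 28472052), stood at 21.6, 38.9 and 31.6 CPM. Dnah9, the heavy chain of the distal part of the cilium, stood at 10.1, 20.1 and 18.2 CPM. Ccdc114, part of the docking complex that ties the arm to the doublet, stood at 18.1, 26.5 and 25.9 CPM. Mouse 4 was the lowest for all 3, and Dnah9 was at 0.5 of its mouse 5 level, a log2 ratio of -0.999 (95% interval -1.17 to -0.83). The fourth gene, the heavy chain Dnah11, was at 0.667 of its mouse 5 level and 0.849 of its mouse 6 level.

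All 6 inner dynein arm genes were lower in mouse 4 than in mouse 5 by at least 1.5-fold. Their median log2 difference was -0.77 against mouse 5 and -0.57 against mouse 6. Dnah6, a heavy chain of a single-headed inner arm (ENSMUSG00000052861, chromosome 6, 73017606 to 73221651), stood at 21.9, 46.5 and 38.3 CPM, and its level in mouse 4 was 0.471 of that in mouse 5, a log2 ratio of -1.09 (95% interval -1.20 to -0.97). Dnah10, a heavy chain of the double-headed inner arm (ENSMUSG00000038011, chromosome 5, 124725085 to 124834308), stood at 25.05, 40.96 and 44.9 CPM and so was highest in mouse 6. Dnah1, the lowest of the class per length, stood at 7.78, 14.7 and 12.02 CPM. Dnah2, Dnah3 and Dnah12 had mean levels of 14.4, 24.2 and 12.5 CPM and were also lowest in mouse 4 and highest in mouse 5.

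The nexin-dynein regulatory complex and the axonemal ruler set the spacing of the arms and spokes along the doublet. Drc1, a scaffold of the complex (ENSMUSG00000073102, chromosome 5, 30281388 to 30366695), stood at 9.94, 19.7 and 17.5 CPM. Ccdc40, of the ruler, stood at 18.5, 32.1 and 27.5 CPM, and its partner Ccdc39 at 15.2, 25.6 and 19.5 CPM. All 3 were lowest in mouse 4 and highest in mouse 5, with levels in mouse 4 that were 0.505 to 0.595 of those in mouse 5.

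Radial spoke genes held both the largest difference between mice 4 and 5 of the 40 and some of the smaller ones. Rsph4a, a protein of the spoke head (ENSMUSG00000039552, chromosome 10, 33905111 to 33916021), had 228, 538 and 376 counts or 5.29, 14.9 and 11.9 CPM, a log2 ratio of -1.49 (95% interval -1.72 to -1.26) for mouse 4 over mouse 5 and -1.16 (95% interval -1.41 to -0.92) for mouse 4 over mouse 6. It was the only member lower in mouse 4 than in mouse 6 by at least 2-fold, against 1.24% of all genes, and with Dnah6 and Hydin it was among 3 members lower than in mouse 5 by that much, against 1.85%. Rsph1, another head protein (ENSMUSG00000024033, chromosome 17, 31255019 to 31277383), stood at 37.4, 53.7 and 54.5 CPM, and Rsph9 at 13.1, 17.5 and 20.5 CPM. Both had mouse 4 lowest and mouse 6 highest, with log2 ratios of -0.52 (95% interval -0.62 to -0.42) and -0.42 (95% interval -0.59 to -0.26) for mouse 4 over mouse 5. The intervals of Rsph1 and Rsph9 do not overlap that of Rsph4a.

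Central apparatus genes were lowest in mouse 4 and highest in mouse 5 in 4 of 4 cases, and all 4 passed 1.5-fold between these mice. Hydin, a giant protein of the central pair (ENSMUSG00000059854, chromosome 8, 110266977 to 110610253), stood at 7.57, 16.01 and 11.7 CPM. Spag6l stood at 7.38, 12.9 and 10.3 CPM and Spag16 at 8.94, 13.99 and 12.4 CPM, both of them proteins that hold the central pair together. Spag17, also of this apparatus, was at 0.544 of its mouse 5 level. The close relative Spag6 had 14, 10 and 6 counts beside 318, 467 and 326 counts for Spag6l, and how the authors' counting divided reads between such copies is not given in the sources used here.

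Tektins and the other inner proteins of the doublet were lower in mouse 4 than in both other mice in 7 of 7 cases. Cfap126, the highest of them (ENSMUSG00000026649, chromosome 1, 171113918 to 171126967), stood at 36.7, 52.3 and 52.9 CPM. Tekt1 stood at 12.2, 19.1 and 18.2 CPM. Mns1, with 13.1, 16.7 and 14.2 CPM, was among the members that differed least, at 0.784 of its mouse 5 level and 0.921 of its mouse 6 level. Exons of Tex9 on the opposite strand cover 53% of its exon length, and whether the authors' counting used strand is not given in the sources used here. Tekt2, Tekt4, Enkur and Cfap52 were at 0.525, 0.532, 0.644 and 0.692 of their mouse 5 levels.

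Among the proteins of assembly, transport and other ciliary roles, Dynlrb2, a light chain that serves the dyneins of ciliated cells (ENSMUSG00000034467, chromosome 8, 116504974 to 116515915), stood at 38.6, 52.9 and 60.3 CPM. Cfap43, of the tether that links inner arms to the doublet, stood at 64.3, 84.01 and 80.01 CPM, and its partner Cfap44 at 13.4, 24.4 and 20.3 CPM. Ccdc113 stood at 13.2, 22.9 and 20.8 CPM. Mouse 4 was the lowest for all of these, by more than 1.5-fold against mouse 5 for Cfap44 and Ccdc113 and by less for Dynlrb2 and Cfap43. The pair of Cfap43 and Cfap44 was chosen after its values were seen. The log2 ratio of mouse 4 over mouse 5 was -0.38 (95% interval -0.46 to -0.31) for Cfap43 and -0.86 (95% interval -1.02 to -0.71) for Cfap44. These intervals do not overlap. Cfap43 shares 2.32% of its exon length with Itprip on the same strand, whose identifier is not among those with deposited counts. Whether reads of Itprip were counted for Cfap43 was not tested. Zmynd10, which helps to assemble dynein arms in the cytoplasm, and Ak7, an adenylate kinase of the axoneme, were at 0.592 and 0.545 of their mouse 5 levels.

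Of the 3 members that serve as markers of ciliated cells, Tppp3, a tubulin-binding protein (ENSMUSG00000014846, chromosome 8, 105467493 to 105471526), was the highest of all 40 genes at 281, 384 and 330 CPM. It made up 27.2%, 24.8% and 23.5% of the summed CPM of the 40 genes in mice 4, 5 and 6. Ccdc153 (ENSMUSG00000070306, chromosome 9, 44240676 to 44247306) stood at 58.5, 102 and 95.5 CPM, and Sntn, sentan of the ciliary tip, at 10.7, 17.7 and 15.4 CPM. All 3 were lowest in mouse 4 and highest in mouse 5. The summed CPM of all 40 genes was 1032, 1548 and 1406 CPM, which was 1.5-fold higher in mouse 5 and 1.36-fold higher in mouse 6 than in mouse 4.

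The levels of the members relative to each other were much alike in the 3 mice. Across the 40 genes, which share the libraries and their own lengths, Spearman's rho between the CPM of 2 mice was 0.957 for mice 4 and 5, 0.976 for mice 4 and 6 and 0.973 for mice 5 and 6. All but Mcidas had at least 1 CPM in every mouse, as did 15200 of the 17636 genes tested. At least 10 CPM in every mouse was reached by 26 members, and the share of all genes at that level was not counted. The coefficient of variation over the mice ran from 9.4% for Rfx2 to 45.9% for Rsph4a, with a median of 25.7%.

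Longer genes collect more counts, so levels of different genes are compared per kilobase of exon. On that scale Tppp3 was the highest at 179.6 ± 27.9 CPM per kb, followed by Dynlrb2 at 90.98 ± 19.9, Foxj1 at 51.04 ± 6.29, Ccdc153 at 41.8 ± 11.4 and Rsph1 at 35.4 ± 7.02. Tppp3 and Dynlrb2 stood apart by more than their SD, as did Dynlrb2 and Foxj1. Foxj1 and Ccdc153 did not, though Foxj1 was the higher in every mouse on this scale. The lowest were Mcidas at 0.371 ± 0.153, Hydin at 0.653 ± 0.234, Dnah1 at 0.8804 ± 0.266 and Dnah2 at 0.965 ± 0.232 CPM per kb. Each of these overlapped its neighbour in this order within their SD. Within every mouse, however, Dnah1 lay above Hydin and Dnah2 above Dnah1, while Mcidas lay above Hydin in mouse 4. The dynein heavy chains, with exon lengths of 12009 to 16086 bp, all lay between 0.88 and 2.69 CPM per kb.

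**Figure D3:**
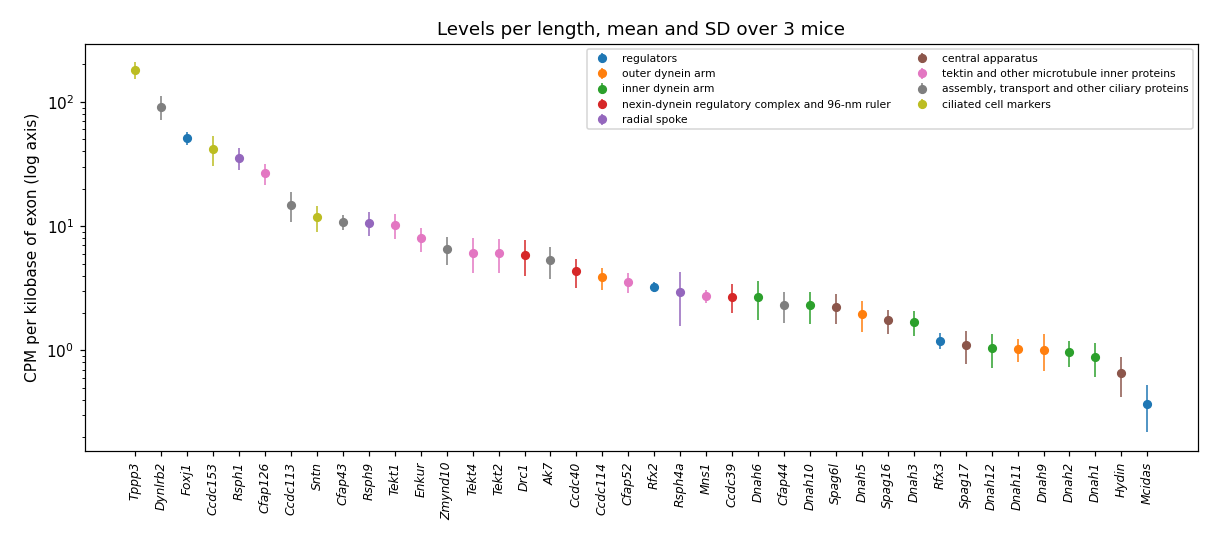
CPM per kilobase of exon for the 40 genes, ordered from high to low on a log axis; points are means and bars are SD over 3 mice, coloured by role. Tppp3, Dynlrb2, Foxj1, Ccdc153 and Rsph1 are the 5 highest, and Hydin and Mcidas are the lowest.

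Ratios per kilobase were steady over the mice for some pairs and not for others. Foxj1 over Rfx2 was 15.2, 16.3 and 15.6 in mice 4, 5 and 6, a mean of 15.7 ± 0.58 (SD, n = 3), while Foxj1 over Mcidas was 84.8, 145 and 252. Of the outer arm heavy chains, Dnah5 over Dnah9 was 1.98 ± 0.211 and Dnah5 over Dnah11 was 1.9 ± 0.213. For the inner arm, Dnah10 over Dnah2 was 2.37 ± 0.268. Among these pairs the ratio to Mcidas had the widest range over the mice.

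Within the spoke, Rsph1 over Rsph9 was 3.34 ± 0.232 per kilobase and Rsph1 over Rsph4a was 13.6 ± 4.75, the latter at 18.8, 9.598 and 12.2 in mice 4, 5 and 6. Both put Rsph1 above the other head genes in every mouse. Ccdc40 over its partner Ccdc39 was 1.597 ± 0.127, but the longest annotated transcript in place of all exons turned this to 0.937, so no order is given for this pair. That length also changed Rsph1 over Rsph9 to 2.32, Dnah5 over Dnah9 to 1.71 and Foxj1 over Rfx2 to 8.89, with the same gene on top.

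Relatives with a role outside the motile axoneme had medians near 0 as a set. Dync1h1, the heavy chain of cytoplasmic dynein, stood at 341, 327 and 328 CPM, and Dynlrb1, the widespread counterpart of Dynlrb2, at 159.8, 149 and 165 CPM. Dync1h1 over Dnah5 per kilobase was 15.7, 8.39 and 10.4 in mice 4, 5 and 6, and Dynlrb1 over Dynlrb2 was 2.28, 1.56 and 1.51, so that both ratios were highest in mouse 4. The adenylate kinase Ak1 stood at 98.9, 59.2 and 58.8 CPM and the forkhead gene Foxj2 at 69.5, 64.5 and 64.8 CPM. Over the 12 such relatives the median log2 difference was 0.07 for mouse 4 against mouse 5 and 0.11 against mouse 6. Single genes ran from -0.66 to 0.74 against mouse 5 and from -0.25 to 0.75 against mouse 6. Of the 12, 3 were lower in mouse 4 than in mouse 5, and 9 passed the filter on low counts.

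Other genes of the motile axoneme, outside the 40, were also lower in mouse 4. Of 46 further axoneme proteins 44 were lower in mouse 4 than in mouse 5 and 42 were lower than in mouse 6, with medians of -0.62 and -0.45. The most abundant were Cfap65 at 45.6, 76.1 and 69.6 CPM, Cfap20 at 43.1, 58.7 and 55.4 CPM, Spef1 at 32.1, 51.8 and 51.7 CPM and Cetn2, a centrin of basal bodies, at 35.5, 44.4 and 38.3 CPM. Of the 45 that passed the filter on low counts, 9 had an unadjusted p under 0.05, against 4.92% of all genes, and 0 an adjusted one, against 0% (edgeR quasi-likelihood fit, Benjamini-Hochberg). The summed CPM of the 40 members was 193%, 190.2% and 189% of that of these 46 genes, so the 2 sets differed between mice by nearly the same factor.

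Other axonemal dynein and docking genes had a median of -0.41 against mouse 5 and -0.41 against mouse 6, with 16 of 18 lower in mouse 4 than in mouse 5. The light intermediate chain Dnali1 stood at 20.5, 31.6 and 29.4 CPM and the light chain Dnal1 at 16.7, 20.2 and 17.9 CPM. Dynll1 and Dnal4, the first of which serves many complexes outside cilia, stood at 203, 208 and 196 CPM and 28.9, 32.3 and 27.2 CPM. Nme8 had 0 counts in all 3 libraries, so that levels of up to 0.0696, 0.083 and 0.0946 CPM are possible there. The 12 factors that assemble dynein arms had medians of -0.38 and -0.34, and 10 of them were lower in mouse 4 than in mouse 5. Of these, Cfap298 stood at 28.7, 35.9 and 33.4 CPM, Dnaaf5 at 27.3, 25.9 and 25.8 CPM, Dnaaf3 at 21.5, 23.3 and 24.9 CPM and the chaperone Ruvbl1, which has many other tasks, at 23.5, 23.6 and 21.2 CPM.

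Intraflagellar transport and BBSome genes, which all cilia use, lay nearer to 0 than the genes of the axoneme. All 33 were lower in mouse 4 than in mouse 5 and 26 were lower than in mouse 6, with medians of -0.22 and -0.11. Ift20 stood at 51.2, 59.6 and 61.6 CPM and Ift172 at 51.1, 54.8 and 53.9 CPM. The 17 genes of the multiciliation programme upstream of the axoneme had medians of -0.14 and -0.05, and 12 of them were lower in mouse 4 than in mouse 5. These medians cover a wide range: from -0.86, for Trp73, to 0.46 against mouse 5, and from -0.84, for Ulk4, to 0.28 against mouse 6. Trp73 and Ulk4 are named after their values were seen. The cell cycle factor E2f4, used by ciliated cells for centriole genes, stood at 75.1, 68 and 70.1 CPM and Myb, an early factor of this fate, at 15.3, 21.96 and 21.3 CPM. Gmnc, the relative of Mcidas that acts before it, is named after its values were seen: it had 54, 28 and 30 counts, which did not pass the chi-square test between libraries (Benjamini-Hochberg adjusted p = 0.137).

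Markers of ciliated cells outside the 40 were also lower in mouse 4. Of 16 such genes 14 were lower than in mouse 5 and 15 were lower than in mouse 6, with medians of -0.59 and -0.63. Sec14l3 stood at 299.8, 583 and 339.8 CPM, Lrrc23 at 36.9, 60.1 and 58.9 CPM and the cadherin-like Cdhr3 at 28.7, 52.5 and 49.1 CPM. Sec14l3 differed from the others in that mouse 6 lay near mouse 4. Spermatids, which also build an axoneme, left little trace: of 10 of their genes 4 (Tnp1, Odf1, Acrv1 and Smcp) had 0 counts in every library, the protamine Prm1 had 31, 7 and 9 counts, and the summed level of all 10 was 6.11, 10.6 and 6.75 CPM. Spata18, which is made outside the testis too, gave 4.74, 9.57 and 5.897 CPM of that sum.

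Other airway and lung cells differed between the mice as well, and their part in the levels of the 40 genes was not tested. Club cell genes were below both other mice in mouse 4 in 8 of 8 cases, with medians of -1.19 and -0.99 and summed levels of 10320.2, 27700.4 and 24463 CPM. All 8 general epithelial genes were also lower, with medians of -0.30 and -0.21, led by the cadherin Cdh1 at 275, 373 and 307 CPM. Relative to the summed CPM of those epithelial genes, the 40 members stood at 90.7%, 108% and 107% in mice 4, 5 and 6, and relative to the club cell genes at 10%, 5.59% and 5.75%. Alveolar type 2 genes had medians of -0.42 and -0.15, and alveolar type 1 genes -0.46 and 0.12. Airway basal cell genes ran the other way, with 6 of 6 higher in mouse 4 and Krt5 at 88.6, 34.04 and 28.1 CPM. Of 7 goblet cell genes 6 were lowest in mouse 5, with medians of 0.91 and -0.28 and the mucin Muc5b at 89.5, 39.2 and 89.4 CPM. Mesothelial and fibroblast genes, listed because these cells also make Tppp3, had medians of -0.03 and 0.16, neuroendocrine genes 0.06 and -0.08, and tuft cell genes 0.004 and 0.45.

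The muscle and squamous genes that set mouse 4 apart ran against the motile cilia genes. In skeletal muscle 8 of 8 genes were above both other mice in mouse 4, with medians of 1.41 and 1.61, and the actin Acta1 stood at 1936, 687 and 594 CPM. In squamous epithelium 7 of 7 were above both, with medians of 1.31 and 1.41 and the keratin Krt13 at 142, 53.1 and 46.3 CPM. Macrophage and leukocyte genes had medians of 0.55 and 0.28, and 8 of 8 were higher in mouse 4 than in mouse 5, with Lyz2 at 11888, 9789.9 and 9687 CPM. Cardiac muscle genes followed another order and were lowest in mouse 5, at 316, 148 and 325 CPM. The part of this other RNA in the lower CPM of the motile cilia genes in mouse 4 was not tested.

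**Figure D4:**
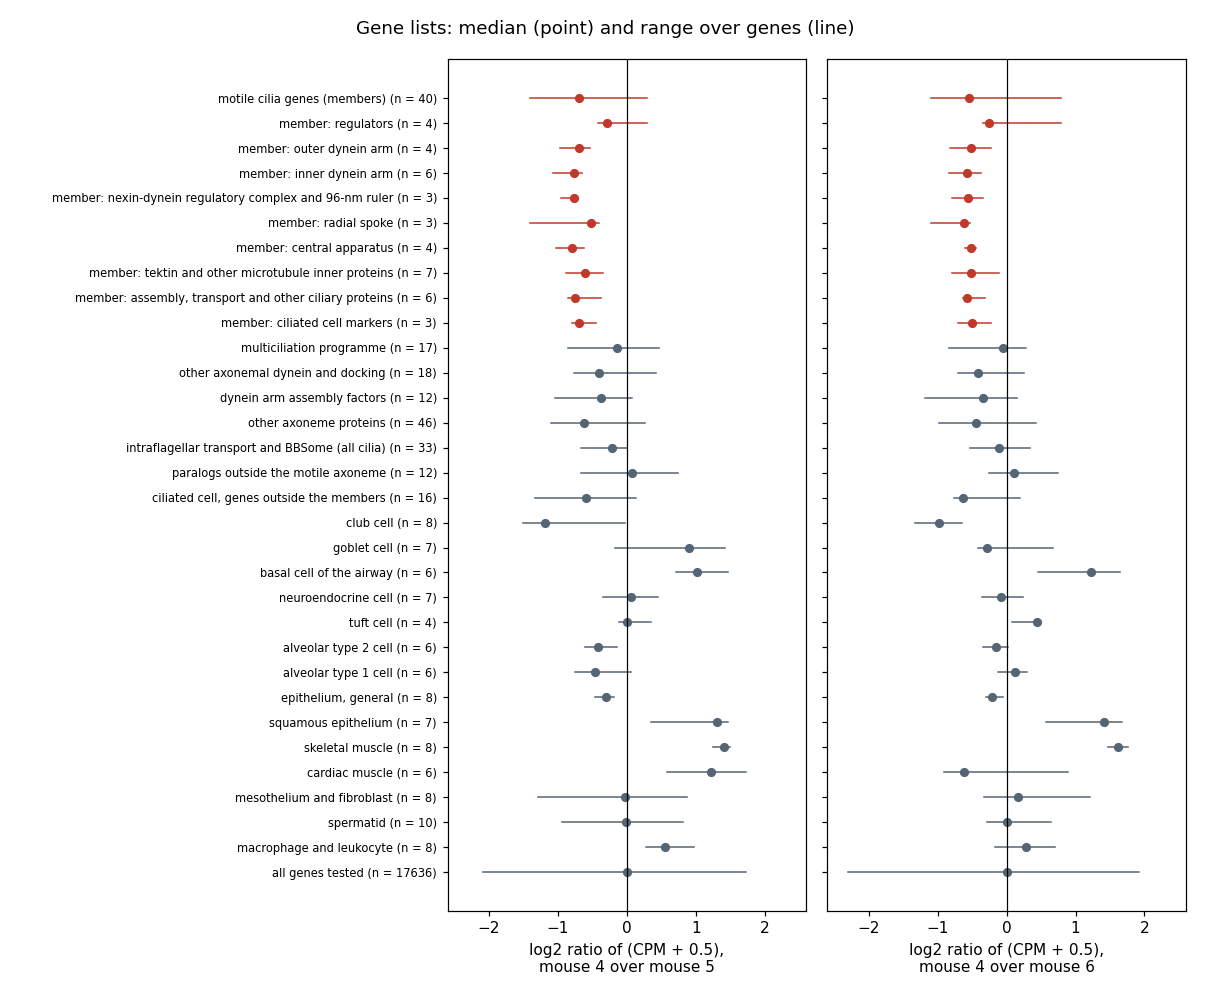
Median (point) and range (line) over the genes of each list of the log2 ratio of CPM + 0.5, for mouse 4 over mouse 5 on the left and mouse 4 over mouse 6 on the right; the motile cilia genes and their role classes are in red. The red points lie left of 0 in both panels, with those of club cells farther left and those of skeletal muscle, squamous epithelium and basal cells right of 0.

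Among the 40 genes, length went with the differences between mouse 5 and each of the others more than with that between mice 4 and 6. Over all genes it went least with that between mice 4 and 5. Across the 40 genes, which share the 2 libraries, Spearman's rho between the log2 ratio of mouse 4 over mouse 5 and exon length was -0.31, and over all genes it was -0.08. The median ratio was -0.61 for the 17 members under 3000 bp and -0.83 for the 11 members of 10000 bp or more, while for all genes of these lengths it was 0.02 and -0.03. For mouse 5 over mouse 6 rho was 0.38 over the members and 0.19 over all genes, with medians of 0.10 and 0.27 for the short and the long members. With mean CPM in place of length, rho for this pair was -0.49 over the members and 0.04 over all genes. For mouse 4 over mouse 6 rho was 0.02 over the members and 0.12 over all genes, with medians of -0.56 and -0.55. The part of length or RNA quality in these differences was not tested. For short and for long members alike, both medians with mouse 4 lay below 0.

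Members with and without the X-box heptamer had medians close to each other. The 9 genes with it had a median log2 ratio of -0.70 for mouse 4 over mouse 5, and the 26 genes with a window but without it had -0.75. Against mouse 6 the medians were -0.57 and -0.54. The 9 genes include Mcidas and Mns1, so the range within them ran from -1.03, for Hydin, to 0.29.

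Exons of other genes overlap those of several members, and whether reads were shared was not tested. Apart from Mns1, the largest exon shares overlapped by a gene on the opposite strand were 20.8% for Tekt2 (Gm12945, with 1, 2 and 0 counts) and 16.9% for Ccdc39 (Ttc14). They were followed by 10.5% for Dnah3 (Lyrm1), 10.1% for Zmynd10 (Gm34106) and 9.66% for Spag17 (Wdr3). Overlaps of other members were smaller. Ttc14 had 3198, 3021 and 2287 counts beside 656, 925 and 617 for Ccdc39. Cdca7l, which overlaps 4.44% of Dnah11, had 622, 415 and 511 counts beside 520, 654 and 451 for Dnah11. On the same strand, Itprip, which has no deposited counts under its identifier, overlaps 2.32% of the exon length of Cfap43. Levels of these members are uncertain to the extent that reads were shared.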

How the data were processed

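The samples were lungs of 3 mice in 1 group, 1 library per mouse; the labels' design text names 3 separate mice. Per the labels' protocols, a Direct-zol RNA MicroPrep kit gave the RNA and the Nugen Universal mRNA Prep Kit the libraries. STAR 2.5.2a, Trim Galore 0.6.2, bcl2fastq 2.17 and mm10 are listed in the submitters' processing notes. Which tool counted the reads, on which annotation and with which strand setting, is not given in the sources used here. The table the authors deposited holds raw counts for each Ensembl gene, whole numbers without normalization.

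Symbols, coordinates (1-based) and exon lengths came from GENCODE M21, which matched 53237 of 53342 identifiers (99.8%). Python 3.11.15, numpy 2.4.6, pandas 2.3.3, scipy 1.17.1 and matplotlib 3.10.9 were used. In edgeR 4.0.16 under R 4.3.3, filterByExpr kept 17636 genes, and TMM factors were 0.983 to 1.01. Spread was tested with the older quasi-likelihood fit, an intercept alone and robust empirical Bayes, by an upper-tail F test of each gene's residual quasi-dispersion against the trend (prior degrees of freedom 3.88). p-values were adjusted by Benjamini-Hochberg over all genes tested, at a threshold of 0.05. Counts were compared between libraries by a chi-square test, adjusted likewise, and 95% intervals of ratios are exact binomial. Reads carry no molecular identifiers in these values, so the intervals, and the floor of 3 counts taken for a count of 0, cover counting error only. The pseudocount was 0.5 CPM.

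The alternatives were other scaling (DESeq2 1.42.0 size factors, totals alone, upper quartile), no expression filter, other dispersion estimates (edgeR without robust weights, DESeq2, limma 3.58.1), other pseudocounts, detection thresholds and lengths, summed CPM, and leaving out each mouse. The members and all gene lists were chosen with earlier results of these data known, among them that ciliated cell genes are lower in mouse 4, so neither the counts nor the order of the mice are independent support for that pattern. Values per mouse are given for the regulators, for the 2 highest and the lowest member per kilobase in each role class, for the 5 smallest p of the spread test and for members with another order of mice; Cfap43 falls outside this rule and was added after its values were seen. From other lists up to 4 genes of highest mean CPM are named, and any other was chosen after its values were seen. Of 252 genes in 21 other lists 251 were found.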

Additional observations from a re-analysis of the deposited data

How the results depend on the processing

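Without the expression filter, 8 members passed the spread test (Ak7, Ccdc153, Dnah10, Dnah5, Dnah6, Dnah9, Drc1 and Rsph4a), as did 632 of 30751 genes (2.06%), and the cause was not tested; under every other alternative run 0 passed. Leaving out 1 mouse gave 22 to 39 members past counting error: 22 without mouse 4, against 42.7% of all genes, and 39 without mouse 5 or mouse 6, against 38.9% and 50.2%. With the longest transcript as the length, Ccdc40 over Ccdc39 turned to 0.937, and Dnah5 over Dnah9, Rsph1 over Rsph9 and Foxj1 over Rfx2 moved to 1.71, 2.32 and 8.89, because the gene models differ in length. Under other scaling, pseudocounts or summed CPM, the members' difference ran from -0.74 to -0.59 for mouse 4 over mouse 5, from -0.57 to -0.45 for mouse 4 over mouse 6 and from 0.14 to 0.20 for mouse 5 over mouse 6, and the same 39 members were lowest in mouse 4 under each scaling. Each member's mean CPM stayed within 1 SD in 120 of 120 recalculations with other scaling. It also did so in the 120 that left out 1 mouse. Those 120 test nothing, because leaving out 1 of 3 values cannot move a mean by as much as 1 SD. No paired analysis was possible because the labels give 1 group. Depth limits Mcidas, whose 16 to 53 counts leave wide intervals, and the 3 mice, with no untreated lungs analysed here, limit every result to a description of these animals.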
